A study of Mus musculus with 4 samples.

Results

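Non-collagen fibrous matrix genes encode the glycoproteins, microfibril proteins and cross-linking enzymes that surround the collagen fibrils of a connective tissue, and 9 of them are described here through their circular RNAs: Fn1, Fbn2, Fbln2, Fbln5, Lox, Postn, Sparc, Thbs2 and Vcan. A circular RNA (circRNA) is a closed loop made when a downstream splice site joins back to an upstream one, and it was counted by the reads across that back-splice junction. A circRNA was taken as a member when both ends of its junction lay inside the RefSeq span of one of these genes on mm10, with a tolerance of 1 bp. This gave 102 circRNAs of 40909 in the table, or 0.249% of the circRNAs and 0.0523% of the junction reads (2236 of 4278181). All 9 genes had at least 1 circRNA, among 6930 genes that had any. The table's numbering runs to 41588, and the numbers missing from it were not analysed here, so counts of circRNAs refer to those analysed.

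The cells were primary mouse articular chondrocytes, thawed at passage 1 to 3 and plated 24 h earlier. The IL-1β group (2 libraries) received 10 ng/ml of recombinant human interleukin-1β for 24 h, a cytokine that drives joint inflammation and brings cultured chondrocytes closer to osteoarthritis, and the control group (2 libraries) did not, going by the source label, since the treatment text is the same for all samples. The labels give no strain, age or sex. They also do not say whether replicates were independent cultures, so each p-value reflects the scatter of these libraries, part or all of which may be technical. RNA was depleted of ribosomal RNA and digested with RNase R, an exonuclease that degrades linear RNA. The counts are of back-splice junctions and do not measure the messenger RNA of these genes. Whether each junction comes from a circle was not checked here. In such bulk samples, fewer cells of a type and less circRNA per cell cannot be told apart.

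In cartilage and in the tissues around it, fibronectin forms a cell-bound fibrillar network that integrins assemble, and its fragments are known from osteoarthritic joints. Fibrillins build microfibrils, on which fibulins and elastin are placed, and lysyl oxidase cross-links collagen and elastin. Periostin, SPARC and thrombospondin 2 are matricellular proteins, which bind matrix and cell receptors without forming the main scaffold. Versican is a large proteoglycan that binds hyaluronan. Chondrocytes that lose their phenotype in culture are known to make more of several of these proteins.

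Depth, scaling and identity of the libraries were checked first. Junction reads came to 895774 and 980542 with IL-1β, against 1198010 and 1203855 in control. The authors' own depth-scaled unit, SRPBM, shifted the median log2 change of all host genes to -0.24, against -0.03 with TMM scaling, so changes are read relative to the bulk of genes. Values of 1 read were nearly missing, at 7 of 75588 values above 0, so a 0 can stand for a junction that was not called. Where a group was at 0, the mean of the other group is given against a floor of 3 reads per library. This covers counting error at the 0 only, not the scatter of the other group. All intervals here cover counting error only. Of 16 chondrocyte markers, 5 had a circRNA, with 243 and 321 summed reads with IL-1β, against 481 and 279 in control, nearly all from Sox5 and Sox6. Acan, Col2a1, Sox9 and Comp had none among the circRNAs analysed. Of 11 fibroblast and synovium markers, 5 had a circRNA (Col1a1, Col1a2, Col3a1, Pdgfra and Pdpn), with 80 and 65 summed reads with IL-1β, against 169 and 241 in control. Osteoblast markers had 336 and 360 reads with IL-1β, against 320 and 511 in control, all from Runx2, which was 1 of 6. Endothelial markers had 139 and 114 reads with IL-1β, against 116 and 140 in control, from 2 of 6 (Flt1 and Pecam1), with Cdh5, Kdr and Tek at 0. Macrophage markers had 9 and 8 reads with IL-1β, against 15 and 0 in control, all from Mrc1, with Ptprc, Csf1r, Adgre1 and Cd68 at 0. Muscle markers had 0 reads in both IL-1β libraries, against 7 and 0 in control.

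Fn1, Fbn2 and Fbln2 carried 86.1% of the members' junction reads, and none of the 9 genes changed past the threshold with IL-1β. Summed over the 9 genes, the IL-1β libraries held 422 and 517 reads and the controls 538 and 759. These were 0.0471% and 0.0527% of all junction reads with IL-1β, against 0.0449% and 0.0630% in control, so the shares overlapped between the groups. A junction is a single position, so its reads do not grow with gene length, but a longer gene offers more junctions. Per kb of gene span the order was Fn1 at 10.6 reads per kb over the 4 libraries, Fbln2 at 9.67, Lox at 6.81, Fbn2 at 3.08, Sparc at 2.66, Thbs2 at 1.25, Postn at 1.13, Fbln5 at 0.758 and Vcan at 0.239. By total reads Fn1 ranked 1044 of 6930 host genes and Vcan, the lowest member, 4757.

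**Figure D1:**
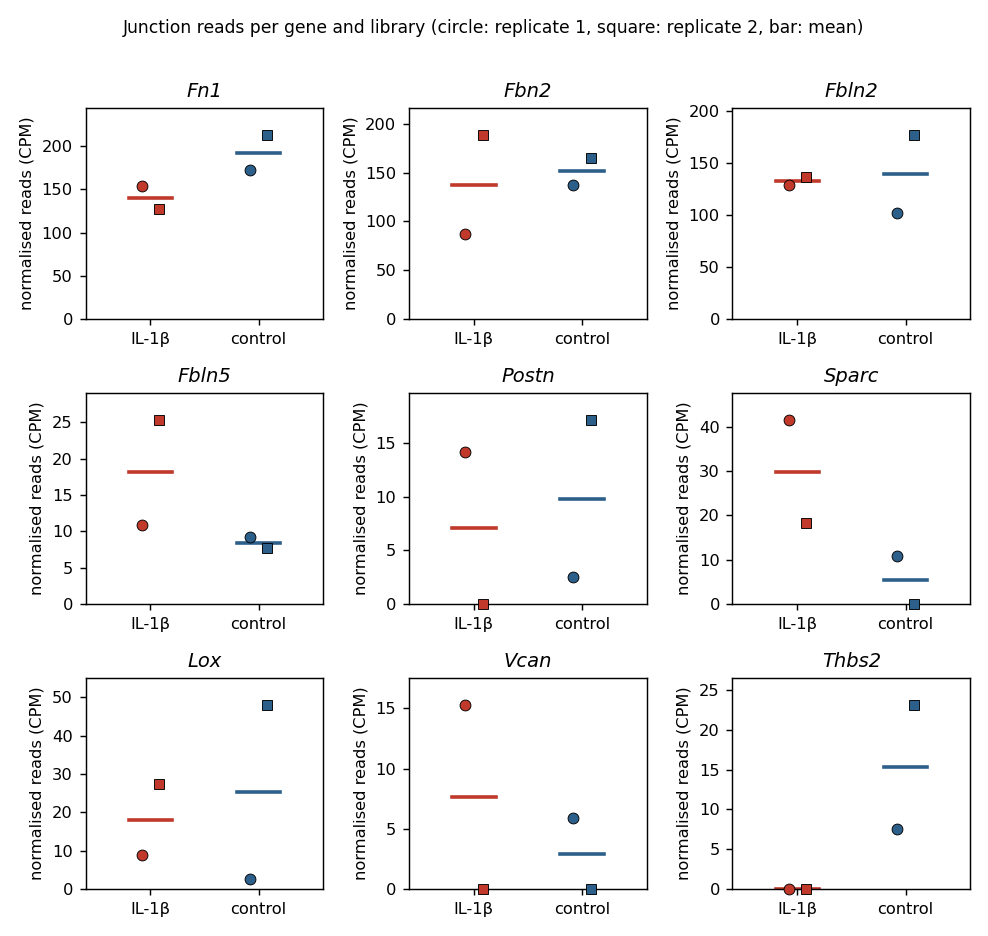
Normalised junction reads (CPM, vertical axes starting at 0) summed over the circRNAs of each of the 9 genes, with IL-1β libraries left and control libraries right, replicate 1 as a circle, replicate 2 as a square and the group mean as a bar. The groups do not overlap for Fn1 and Thbs2 (lower with IL-1β) or for Fbln5 and Sparc (higher with IL-1β), and overlap for the other 5.

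The first comparison asked whether the circRNA output of each gene differed with IL-1β. None of the 9 passed edgeR's quasi-likelihood test over 4879 tested host genes (adjusted p from 0.882 to 0.9997), and at an unadjusted p under 0.05 there were also 0 of 9. Over all hosts 0 passed, 0% at the adjusted threshold, and 4.55% had an unadjusted p under 0.05. DESeq2 gave 0 of 9 at an adjusted p under 0.05, against 1.13% of all hosts, and 1 of 9, Thbs2, at an unadjusted p under 0.05, against 10.8% of all hosts. It gave no adjusted p for 3 of the genes, which were Postn, Vcan and Thbs2. The log2 change was negative for 6 genes and positive for 3. Both IL-1β libraries lay below both controls for 2 genes, where 18.9% of all hosts did so, and above them for 2 genes, where 17.0% did so, so the members' counts stood near the background.

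Fn1 (chromosome 1, 71585473 to 71653280, minus strand), the gene of fibronectin, had 141 and 126 reads in IL-1β replicates 1 and 2, against 206 and 248 reads in control replicates 1 and 2. Both IL-1β libraries were below both controls, also after scaling, at 154 and 127 CPM against 172 and 212 CPM. CPM here is junction reads per 1e6, after TMM scaling. The means were 141 ± 18.7 CPM with IL-1β, against 192 ± 28.4 CPM in control (SD, n = 2 libraries each), 1.37-fold lower, a log2 change of -0.45 ± 0.32 (SE) with an adjusted p of 0.924 in edgeR. With 1 library left out at a time the log2 change ran from -0.59 to -0.29. The 52 Fn1 circRNAs read in 1 library only had 75.3 and 46.5 CPM with IL-1β, against 117 and 86.5 CPM in control. For the 6 read in 2 or more libraries the groups overlapped, at 78.5 and 80.9 CPM with IL-1β, against 55.2 and 126 CPM in control. The split was made on the same reads, and a circle read in 1 library can only be read in 1 group. It therefore cannot show which circles the difference in the Fn1 sums comes from. The summed reads of the fibroblast and synovium markers were also lower in both IL-1β libraries, and their part in the Fn1 values was not tested.

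Of the microfibril and elastic fibre genes, Fbn2 (chromosome 18, 58008623 to 58210572, minus strand), which encodes the fibrillin prominent in development, had 80 and 186 reads with IL-1β, against 164 and 193 in control. IL-1β library 1 stood alone below the other libraries, and the groups overlapped. Its means were 138 ± 71.3 CPM with IL-1β, against 151 ± 19.9 CPM in control, and its log2 change of -0.13 ± 0.43 became 0.31 without IL-1β replicate 1. Fbln2 (chromosome 6, 91212460 to 91272540, plus strand), which encodes fibulin 2, a linker between microfibrils and other matrix proteins, had 118 and 135 reads with IL-1β, against 122 and 206 in control. Its IL-1β libraries were close together and lay between the controls, with 133 ± 5.51 CPM against 139 ± 52.6 CPM. The log2 change was -0.07 ± 0.39 and became 0.38 without control replicate 2.

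Fbln5 (chromosome 12, 101746565 to 101819119, minus strand), whose product binds tropoelastin and guides elastic fibre assembly, had 10 and 25 reads with IL-1β, against 11 and 9 in control. After TMM scaling the groups just missed overlapping, at 10.9 and 25.3 CPM against 9.19 and 7.71 CPM, and the log2 change was 1.09 ± 1.59, or 0.37 without IL-1β replicate 2. On the SRPBM scale they overlapped, at 0.838 and 1.86 against 0.932 and 0.559, while the Fbln2 groups no longer did, at 9.89 and 10.1 against 10.3 and 12.8. On that scale 23.9% of all hosts were lower in both IL-1β libraries and 9.92% higher. Lox (chromosome 18, 52516060 to 52529867, minus strand), the gene of lysyl oxidase, had 8 and 27 reads with IL-1β, against 3 and 56 in control. The control libraries were the lowest and the highest of the 4, and without control replicate 2 its log2 change of -0.48 ± 1.42 turned to 2.79.

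Of the matricellular genes, Sparc (chromosome 11, 55394159 to 55420080, minus strand), whose product binds collagen and calcium, had 38 and 18 reads with IL-1β, against 13 and 0 in control. Both IL-1β libraries were above both controls, with 29.8 ± 16.4 CPM against 5.43 ± 7.68 CPM, and the log2 change was 2.43 ± 1.77 with an adjusted p of 0.935 in edgeR. It was 1.45 without control replicate 2, the library at 0, and 7.96 without control replicate 1. Thbs2 (chromosome 17, 14665500 to 14694262, minus strand), the thrombospondin 2 gene, had 0 reads in both IL-1β libraries, against 9 and 27 in control. The control mean was 4.86-fold above the floor of 3 reads per library (adjusted p = 0.882 in edgeR). Thbs2 reached the 20 reads needed for testing through the control group alone. Of all tested hosts 183, or 3.75%, had 0 reads in both IL-1β libraries. Postn (chromosome 3, 54359267 to 54391041, plus strand), the gene of periostin, had 13 and 0 reads with IL-1β, against 3 and 20 in control. Its groups overlapped, and 1 library decided the sign, since the log2 change of -0.47 ± 2.62 was 0.53 without IL-1β replicate 2.

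Vcan (chromosome 13, 89655309 to 89743027, minus strand), the versican gene, had 14 and 0 reads with IL-1β, against 7 and 0 in control. Replicate 2 of each group had no read, so its log2 change of 1.35 ± 3.23 rested on replicate 1 of each. Fbln5, Lox, Postn, Sparc, Thbs2 and Vcan had 311 reads together over 4 libraries, and standard errors from 1.42 to 3.27 on the log2 scale.

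The second comparison asked how each gene divides its reads among circles. Fn1 gave 58 circRNAs, against 7 from Fbn2, 5 from Fbln2, 5 from Fbln5, 7 from Lox, 5 from Postn, 9 from Sparc, 4 from Thbs2 and 2 from Vcan. It ranked 11th of 6930 hosts by number of circRNAs, though 1044th by reads, and averaged 12.4 reads per circRNA where Fbln2 averaged 116 and Fbn2 89.0. Among the 546 hosts with 500 to 1000 reads, a window set after seeing the values that holds Fn1, Fbn2 and Fbln2, the median was 10 circRNAs and the quartiles 6 and 14. Fn1 had the most of these hosts and the next had 40. With hosts of 300 to 1500 reads (1255 hosts) Fn1 again had the most, and the next had 43. This is a description of the table and was not tested.

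**Figure D2:**
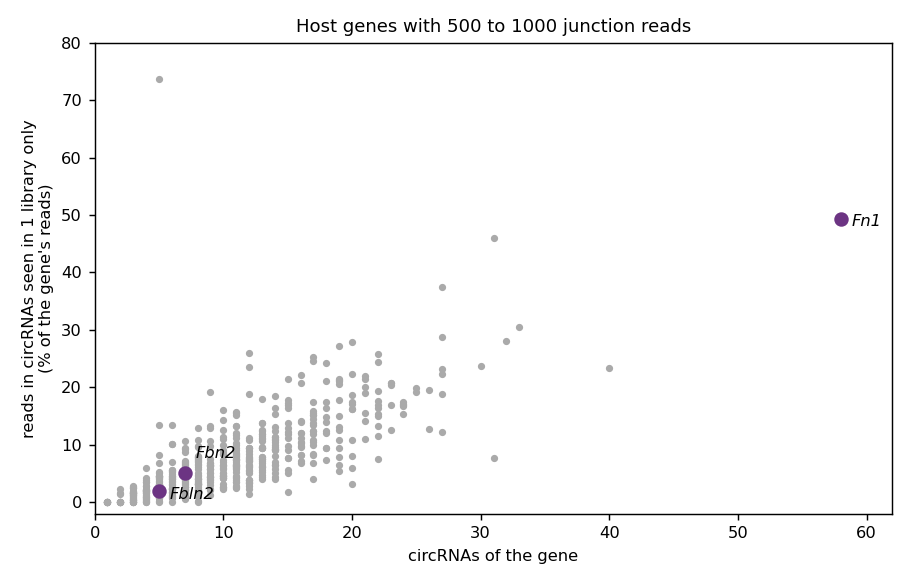
Each point is 1 of the 546 host genes with 500 to 1000 junction reads, by its number of circRNAs (horizontal axis) and the percent of its reads in circRNAs seen in 1 library only (vertical axis). Fn1 lies at 58 circRNAs and 49.4%, and Fbn2 (7 circRNAs, 5.14%) and Fbln2 (5 circRNAs, 1.89%) lie among the bulk of points.

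Of the 58 Fn1 circRNAs, 52 were read in 1 library only, 4 in 2 libraries, 1 in 3 and 1 in all 4. The 52 had between 2 and 14 reads each, with a median of 6, and together held 49.4% of the Fn1 reads. Over the hosts of 500 to 1000 reads this share had a median of 6.23%, and only 1 other host reached the Fn1 value. The IL-1β libraries read 15 and 9 Fn1 circRNAs and shared 2, and the controls read 26 and 17 and shared 3. In the whole table the IL-1β libraries shared 9945 circRNAs, which is 56.3% of library 1 and 51.5% of library 2, and the controls shared 9893, which is 47.9% and 55.1%. Over all 9 genes, 86 of 102 circRNAs (84.3%) were read in 1 library, where 58.6% of all circRNAs were, and 4 of 102 were read in every library.

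**Figure D3:**
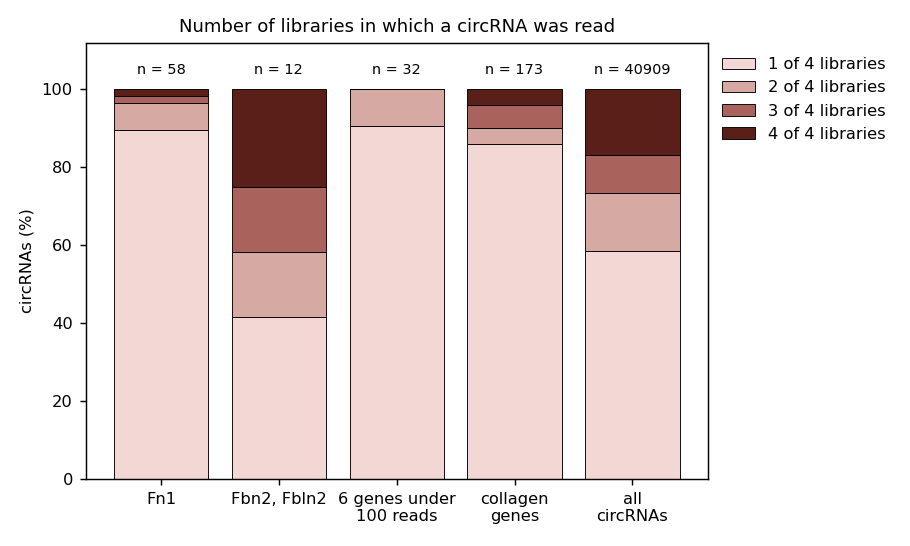
Percent of circRNAs (vertical axis) read in 1, 2, 3 or 4 of the 4 libraries, for Fn1, for Fbn2 with Fbln2, for the 6 genes with fewer than 100 reads, for collagen genes and for all circRNAs, with the number of circRNAs above each bar. Circles read in 1 library make up 89.7% for Fn1, 41.7% for Fbn2 with Fbln2, 90.6% for the 6 genes, 86.1% for collagen genes and 58.6% for all circRNAs.

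The collagen genes, the nearest other matrix genes in the table, had 173 circRNAs, 149 of them (86.1%) read in 1 library, and these held 18.7% of the collagen reads. For the 6 genes with few reads the figures were 29 of 32 circRNAs and 81.4% of reads, and for Fbn2 with Fbln2 5 of 12 circRNAs and 3.57% of reads. Among circRNAs with 5 or more reads in total, a limit added after seeing the data, 34 of 40 Fn1 circRNAs and 60 of 76 member circRNAs were read in 1 library, against 51.5% of all. Of 32 member values between 10 and 19 reads, 25 (78.1%) stood beside a 0 in the other library of the group, where 56.3% of such values did in the whole table. Between 20 and 199 reads it was 4 of 25 (16%) and 14.7%. Circles share a gene and a library, so none of these shares was tested.

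The Fn1 circles covered nearly the whole gene, their ends running from 1.63 to 67.7 kb from its 5′ end. By the midpoint of the circle, the gene in 3 equal stretches from its 5′ end held 13 circRNAs and 13.5% of the reads, then 23 and 35.0%, then 22 and 51.6%. The stretch at the 3′ end had 58 and 65 reads with IL-1β, against 100 and 149 in control, and the middle stretch 44 and 57 reads with IL-1β, against 76 and 75 in control. In both, each IL-1β library had fewer reads than each control. In the stretch at the 5′ end the groups overlapped, with 39 and 4 reads with IL-1β, against 30 and 24 in control. These are reads before scaling, and the controls held more junction reads in all. The stretches are parts of the Fn1 sum given above, and the like share over other genes was not computed.

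**Figure D4:**
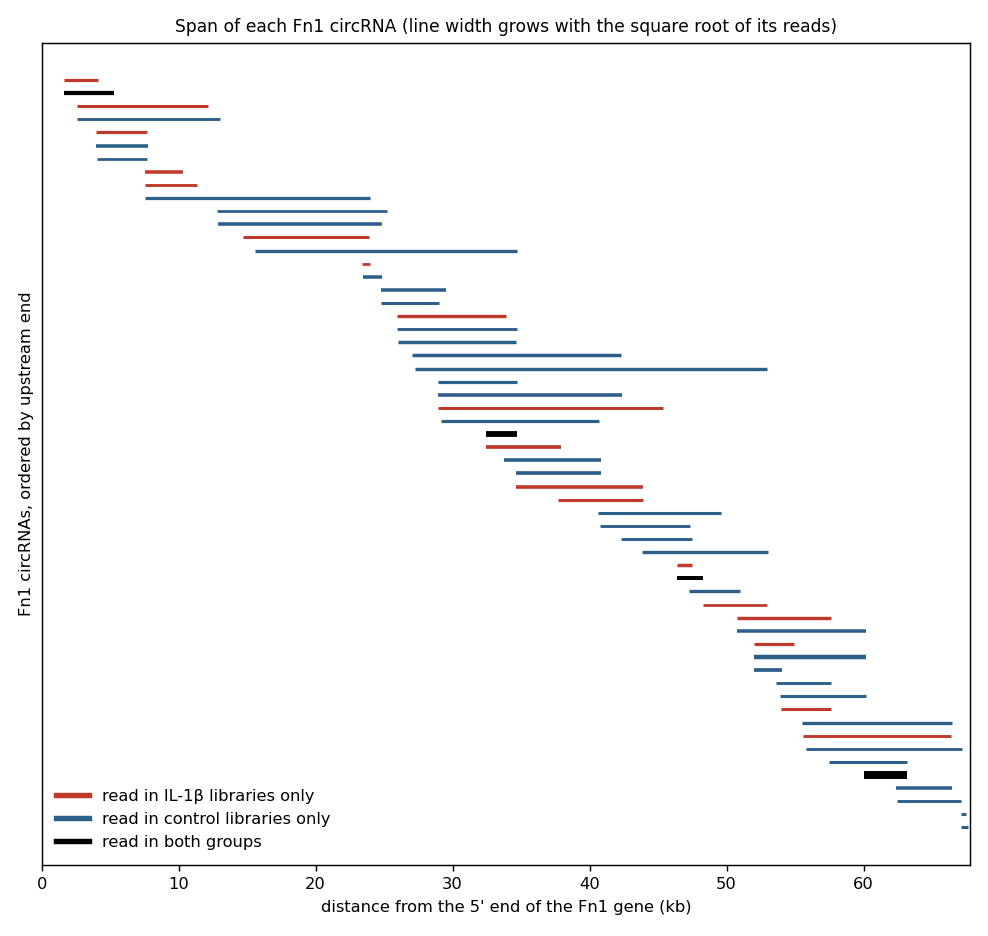
Span of each of the 58 Fn1 circRNAs as a line from its upstream to its downstream end, by distance from the 5′ end of the gene (horizontal axis, kb), one row per circRNA, with line width growing with the square root of its reads. Circles read in IL-1β libraries only (18) and in control libraries only (36) lie along the whole gene, and the 4 read in both groups include the thickest line, at 60.0 to 63.2 kb. These are 31.0% read in IL-1β only and 62.1% in control only, where all circRNAs had 29.8% and 33.9%. The controls held more junction reads, and the split was not tested.

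Many Fn1 circles reused the ends of others: 8 shared both ends with another Fn1 circle, 23 shared 1 end and 27 shared none. All 6 that were read in 2 or more libraries shared at least 1 end, while 0 of the 27 with no shared end were read in more than 1 library. Over all circRNAs with a host gene, 21.9% of those with no shared end, 38.7% with 1 and 59.4% with both were read in 2 or more libraries.

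The third comparison asked whether single circRNAs of these genes differed with IL-1β. The 14 of 102 with 20 or more reads in total were tested. In edgeR's quasi-likelihood test over 15333 circRNAs 0 of the 14 passed (smallest adjusted p = 0.886), and 0 had an unadjusted p under 0.05. Of all tested circRNAs 0.0196% passed and 3.44% had an unadjusted p under 0.05. DESeq2 gave 0 of 14 at an adjusted p under 0.05, against 0.691% of all tested circRNAs, and no adjusted p for 6 of them. At an unadjusted p under 0.05 it gave 3 of 14 (circRNA.19864, circRNA.3696 and circRNA.15348), against 8.99% of all tested circRNAs. Each of the 3 was read in 1 group only and reached 20 reads through that group alone. Of these, only circRNA.15348 had an adjusted p in DESeq2 (0.471). Both IL-1β libraries were below both controls for 3 of the 14, against 17.2% of all tested circRNAs, and above them for 3, against 16.4%. The other 88 had at most 18 reads each.

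The main Fn1 circle, circRNA.19861 (71590098 to 71593235), lay 60.0 to 63.2 kb from the 5′ end of the gene and held 27.3% of the Fn1 reads. It had 28 and 53 reads with IL-1β, against 36 and 80 in control, and was the only Fn1 circle read in every library. Replicate 2 was the higher library in both groups, and the log2 change was -0.18 ± 0.65. Its share of the Fn1 reads was 19.9% (95% exact Clopper-Pearson interval 13.6 to 27.4) and 42.1% (33.3 to 51.2) in IL-1β libraries 1 and 2, against 17.5% (12.6 to 23.4) and 32.3% (26.5 to 38.5) in the controls. The difference of 6.09 percentage points was smaller than the spread within a group (exact permutation test, two-sided, p = 0.667, where 2 against 2 libraries cannot go below 0.333).

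The next Fn1 circle, circRNA.19889 (71618579 to 71620819), had 28 and 27 reads with IL-1β, against 0 and 24 in control, and control 1 alone had none. After scaling both IL-1β libraries were above both controls, with a log2 change of 1.56 ± 1.82 that was 0.54 without control replicate 1 and 7.90 without control replicate 2. Further along, circRNA.19864 (71593071 to 71601288) was at 0 reads in both IL-1β libraries, against 11 and 21 in control. By counting error alone this was at least 4.18-fold lower (adjusted p = 0.886 in edgeR), and it was 1 of 3 tested member circRNAs at 0 in both IL-1β libraries, as were 10.2% of all tested circRNAs. The remaining tested Fn1 circles were each read in 1 library of each group. circRNA.19876 had 7 and 0 reads with IL-1β, against 0 and 13 in control, and circRNA.19910 had 9 and 0 with IL-1β, against 16 and 0 in control.

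In Fbn2 a single circle dominated. circRNA.15443 (58148991 to 58190336), which spans 41346 bp between 20.2 and 61.6 kb from the 5′ end of the gene, held 76.1% of the Fbn2 reads, with 64 and 120 reads with IL-1β, against 139 and 151 in control. IL-1β library 1 was the lowest and the groups overlapped after scaling. The log2 change was -0.33 ± 0.40, and it ran from -0.81 without IL-1β replicate 2 to -0.0013 without IL-1β replicate 1. Its share of the Fbn2 reads was 80% (69.6 to 88.1) and 64.5% (57.2 to 71.4) with IL-1β, against 84.8% (78.3 to 89.9) and 78.2% (71.7 to 83.8) in control (exact permutation p = 0.667, two-sided). The second circle, circRNA.15442 (58148991 to 58153957), shares its downstream end and had 0 and 35 reads with IL-1β, against 15 and 32 in control. Another, circRNA.15441 (58124216 to 58153957), had 8 and 13 reads with IL-1β, against 0 in both controls. Its IL-1β mean was 4.40-fold above the floor of 3 reads per library (adjusted p = 0.886 in edgeR). The circle reached 20 reads through 1 group alone. Among tested circRNAs 5.67% had 0 reads in both controls, and 2 of the 14 members did.

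Fbln2 split its reads between 2 places in the gene. circRNA.33533 (91233063 to 91234351), 20.6 kb from the 5′ end and 1289 bp long in the genome, had 65 and 70 reads with IL-1β, against 54 and 88 in control. circRNA.33536 (91250858 to 91257826), 38.4 kb from the 5′ end, had 27 and 55 reads with IL-1β, against 68 and 79 in control, both IL-1β libraries below both controls, with a log2 change of -0.51 ± 0.55 that was -1.07 without IL-1β replicate 2 and -0.15 without IL-1β replicate 1. circRNA.33535, which shares the upstream end of circRNA.33536, had 21 and 10 reads with IL-1β, against 0 and 33 in control. The share of circRNA.33533 in the Fbln2 reads was 55.1% (45.7 to 64.3) and 51.9% (43.1 to 60.5) with IL-1β, against 44.3% (35.3 to 53.5) and 42.7% (35.9 to 49.8) in control. This difference of 9.98 points had both IL-1β libraries above both controls, at the smallest p that 2 against 2 libraries allow (exact permutation p = 0.333, two-sided, adjusted p = 0.667 over the 3 genes with at least 20 reads in every library). The single-library intervals overlapped.

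Among the 6 genes with few reads, 3 circles reached 20 reads, and each was read in 1 group only. Each thus reached 20 reads through that group alone, and each had an adjusted p of 0.886 in edgeR. In Sparc, circRNA.3696 (55398548 to 55402071) had 11 and 15 reads with IL-1β, against 0 in both controls. Its IL-1β mean was 5.47-fold above the floor of 3 reads per library. In Fbln5, circRNA.5291 (101757256 to 101771367) went the other way from its gene, with 0 reads in both IL-1β libraries, against 11 and 9 in control. Its control mean was 2.63-fold above the same floor. The IL-1β reads of Fbln5 came from circRNA.5288, circRNA.5289, circRNA.5290 and circRNA.5292, with 11, 10, 4 and 10 reads, each from 1 library. In Lox, circRNA.15348 (52519171 to 52527010) had 56 reads in control 2 and 0 in the other libraries, which is 59.6% of all Lox reads. The 4 Thbs2 circles had 9, 12, 6 and 9 reads, the first 3 in control 2 and the last in control 1. The leading circle of Postn was circRNA.24847, with 13 reads, all in control 2, and that of Vcan was circRNA.7976, with 5 and 0 reads with IL-1β, against 7 and 0 in control.

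Other genes of the same networks gave few circles and no calls. Of 74 further genes of elastic fibres, matricellular proteins, fibronectin assembly and the hyaluronan network, 33 had a circRNA and 16 were tested, and 0 passed in edgeR at the adjusted threshold, as did 0% of all hosts. By unadjusted p under 0.05 in edgeR, 1 of the 16 was higher and 1 lower, where 2.09% of all hosts were higher and 2.46% lower. The log2 change was positive for 7 and negative for 9, with a median of -0.37 against -0.03 over all hosts, and the median turned to 0.046 with no filter on reads and to 0.14 with at least 50 reads. Eln, Fbn1, Fbln1, Tnc, Tgfbi and Acan were among the genes with no circRNA among those analysed.

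In the elastic fibre list 5 of 21 genes were tested, with 1 log2 change positive and 4 negative. Ltbp1, which anchors latent TGF-β to microfibrils, held nearly all of its reads, with 4747 and 4426 reads with IL-1β, against 6113 and 6659 in control, groups that overlapped after scaling (4827 ± 497 CPM against 5406 ± 419 CPM). Emilin2, an elastic fibre glycoprotein, had 131 and 111 reads with IL-1β, against 82 and 45 in control, both IL-1β libraries above both controls, 2.38-fold higher (unadjusted p = 0.0277, adjusted p = 0.882 in edgeR). Adamtsl4 had 16 and 0 reads with IL-1β, against 25 and 13 in control. In the matricellular list 4 of 23 were tested, 1 positive and 3 negative, and the 3 with the most reads, Smoc2, Ccn1 and Tnr, each had a library at 0.

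In the fibronectin assembly list 6 of 13 genes were tested, 4 positive and 2 negative, with a median of 0.47. Itga8, the α8 chain of an integrin that binds the RGD motif of fibronectin, had 34 and 20 reads with IL-1β, against 115 and 107 in control. Its controls were far above its IL-1β libraries and close to each other, with 28.7 ± 11.9 CPM against 93.9 ± 3.18 CPM, 3.28-fold lower (unadjusted p = 0.0149, adjusted p = 0.882 in edgeR). Itgav, the αv chain, had 140 and 165 reads with IL-1β, against 170 and 108 in control, higher in both IL-1β libraries after scaling (160 ± 10.0 CPM against 117 ± 35.1 CPM). Itgb1, the β1 chain, had 38 and 82 reads with IL-1β, against 80 and 19 in control, and its groups overlapped. In the hyaluronan list only Cd44, the hyaluronan receptor, was tested of 17 genes. It had 79 and 69 reads with IL-1β, against 49 and 79 in control, with a log2 change of 0.52 ± 0.52.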

How the data were processed

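Per the labels, RNA was depleted of rRNA, digested with RNase R and made into strand-specific libraries. The submitters' processing notes name mm10 and Bowtie2. The way circRNAs were called, filtered and freed of duplicates was not given in the sources used here. Per the file headers, the values deposited are counts of junction reads and SRPBM, a signal scaled by depth. The median of counts over SRPBM within a library was 11.9 and 13.4 with IL-1β, against 11.8 and 16.1 in control. Each of the 4 single-library tables equalled its columns of the series table.

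Of 40909 circRNAs, 39571 got a host gene: both ends inside exactly 1 coding RefSeq gene (GRCm38.p6), or failing that 1 other gene. No member circRNA lay inside another gene. Exon structure and junction sequence were not used here.

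Counts with at least 20 reads over the libraries went into the quasi-likelihood test of edgeR 4.0.16, run in R 4.3.3 (TMM factors, no covariate, Benjamini-Hochberg at 0.05) on 15333 circRNAs and 4879 hosts. The fits were also run on simulated counts, and no result here rests on that run. DESeq2 1.42.0 was an alternative. Standard errors are the log2 change over the square root of F. Shares used Python 3.11.15 and scipy 1.17.1. The members, the gene lists and the rule for naming (all members, all circRNAs with at least 20 reads, each gene's leading circRNA, and the 3 tested list genes with the most reads) were chosen with earlier results of these data known. Untested circRNAs of Fbln5 and Thbs2, and list genes without circRNAs, were named after their values were seen.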

Additional observations from a re-analysis of the deposited data

How the results depend on the processing

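No member gene, member circRNA or other matrix gene passed an adjusted p of 0.05 under any alternative run, the replicate block included (0 in each). Of 110 values of the 9 genes' log2 changes under alternatives, 103 kept their sign, as did 141 of 150 for the 14 circRNAs. These counts include alternatives that could not move a member. No member circRNA lay within 5 nt of another or inside another gene. Merging or leaving out such circles therefore left each gene's value as it was. With the replicate block the Lox change was 0.35 and 20 hosts and 61 circRNAs passed in the whole table. The labels do not say that the numbers pair the libraries. Deviations of same-numbered libraries correlated at 0.03 over 2209 hosts and -0.03 over 3100 circRNAs. With 2 libraries per group this cannot settle whether they were paired. DESeq2 called 55 hosts and 106 circRNAs, no read filter 12 and 61, and at least 50 reads 0 and 0, against 0 and 3. DESeq2 gave no adjusted p for 3 of the 9 genes and 6 of the 14 circRNAs, so these could not pass there. Summing junctions within 5 nt of each other left 0 circRNAs past the threshold, and there was no member circRNA for it to merge. With 1 library left out, hosts called ran from 0 to 2 and circRNAs from 0 to 4. The log2 change then ran from -0.79 to 0.31 for Fbn2, -0.37 to 0.38 for Fbln2, -1.52 to 2.79 for Lox and -6.47 to 0.53 for Postn. For circRNAs it ran from -0.67 to 0.47 (circRNA.19861), -1.47 to 0.48 (circRNA.19876), -1.45 to 0.52 (circRNA.19910), -7.45 to 0.85 (circRNA.15442), -0.037 to 0.63 (circRNA.33533) and -0.72 to 7.09 (circRNA.33535). Without control replicate 2, Postn and Thbs2 had too few reads to be tested, as did Vcan without replicate 1 of either group. The median of the other matrix hosts ran from -0.33 to 0.16, and was 0.046 with no filter and 0.14 with at least 50 reads. The difference in leading share ran from -5.01 to 17.2 points for Fn1. Control 1 held 40 member circRNAs, and 26 with at least 5 reads. Thinned to 895774 reads it held 39. The cause of these shifts was not tested. Leaving out 1 library turned the sign of Fbn2, Fbln2, Lox and Postn, and did not turn that of Fn1, Fbln5, Sparc, Thbs2 or Vcan where these could be tested.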

Other observations

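Some junction ends that circRNAs of these genes shared were read in 1 group only. The values below were chosen after they were seen, with no test. The share of such ends over all genes was not computed. In Fn1 the end at 71593071, 60.2 kb from the 5′ end of the gene, belonged to 3 circRNAs. They had 0 reads in both IL-1β libraries, against 22 and 26 in control. Of these 48 reads, 32 were those of circRNA.19864, described above. The most reused Fn1 end, at 71618579 and 34.7 kb from the 5′ end, belonged to 4 circRNAs and was read in both groups. It had 28 and 27 reads with IL-1β, against 17 and 24 in control. In Sparc the upstream end at 55402071 belonged to 2 circRNAs with 18 and 15 reads with IL-1β, against 0 in both controls. Of these 33 reads, 26 were those of circRNA.3696, described above. The other shared ends read in 1 group only had fewer reads. In Fn1, 71612468 and 71586830 had 26 and 19 reads, all in control 2, and 71609413 had 17, all in IL-1β library 2. In Sparc, 55405180 had 5 and 3 reads with IL-1β, against 0 in both controls.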
